A study of Homo sapiens with 6 samples.

Results

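Methyltransferases that draw on S-adenosylmethionine were followed in HMCB, a human melanoma cell line labelled as Nras Q61K, after an siRNA against AHCYL1 (siAHCYL1, 3 libraries) or a control siRNA (siNC, 3 libraries). RNA was taken 3 days after transfection. The siRNA sequences were not used here. The members are the rows whose gene symbol fits a fixed name pattern covering the KMT, SETD, SMYD, NSD, EHMT, EZH, SUV39H, DOT1L, PRMT, DNMT and METTL families. The pattern reads names alone and took 69 of 26902 symbols; it was drawn up with earlier results of these data known. Of these, 59 reached 1 TPM in at least 3 of the 6 libraries and were tested, all with 3 such libraries in each group, so none passed through 1 group alone. Another 7 lay below that level and 3 were listed at 0 in every library.

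S-adenosylmethionine (SAM) is the methyl donor for most methylation in the cell. Each transfer to DNA, RNA, histones or other proteins leaves S-adenosylhomocysteine (SAH), which inhibits many of these enzymes until SAH hydrolase (AHCY) removes it. AHCYL1, also called IRBIT, resembles AHCY in sequence, binds IP3 receptors and is not known as an active hydrolase. Most histone lysine enzymes use a SET domain, DOT1L and the PRMT, DNMT and METTL families a different fold. In melanoma several of these enzymes, EZH2 among them, are known for silencing or activating gene programmes through chromatin.

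The target fell in every siAHCYL1 library. AHCYL1 had 13.45, 11.13 and 10.97 TPM in siAHCYL1 cells, against 150.02, 134.05 and 131.09 TPM in siNC cells (log2 fold change -3.44, SE 0.096, limma adjusted p = 5.64e-08). By an exact two-sided permutation test p was 0.1, and no smaller p is possible with 3 libraries a group. TPM is a length-corrected share of transcripts with the same sum in all libraries, so levels can be compared between genes, but the sequencing depth is not kept and counting intervals cannot be given. Replicate 1 of both groups stood apart on the second principal component (17.57 in siAHCYL1 and 15.04 in siNC, the other libraries between -14.52 and -1.23). The neural crest factor SOX10 was at 993 to 1027 TPM in siAHCYL1 and 1025 to 1050 TPM in siNC cells, while the pigment genes TYR and GPR143 were at 0 and MLANA stayed under 1 TPM in every library. Of the 10 melanocytic markers, 7 were tested, 4 rose and 1 fell, beside 30.4% and 21.2% of all genes tested. The summed level of the 10 was 1198 to 1256 TPM in siAHCYL1 and 1169 to 1208 TPM in siNC cells. SOX10 made up most of that sum. The rises were PMEL (log2 fold change 0.64), TYRP1 (0.87), S100B (1.35) and S100A1 (0.57). The fall was DCT, at 0.34 ± 0.25 TPM in siAHCYL1 and 11.4 ± 0.58 TPM in siNC cells (log2 fold change -3.23). Summed markers of other cell types were low. They ranged from 26.06 to 32.42 TPM in siAHCYL1 and 15.36 to 17.93 TPM in siNC cells for 7 fibroblast genes. For 6 endothelial genes the range was 34.27 to 38.53 TPM in siAHCYL1 and 56.56 to 70.89 TPM in siNC cells. For 9 epithelial genes it was 46.84 to 52.55 and 47.43 to 65.06 TPM in siAHCYL1 and siNC cells, and for 8 immune and blood genes 11.72 to 18.1 and 14.92 to 28.76 TPM. PDGFRA, THY1, VWF, CDH1, KRT5, CD3E and HBB were at 0 in all 6 libraries. The sums came mostly from other genes of these lists, such as LUM, EGFL7, KDR, KRT10, KRT18, CLDN4, PTPRC and HBA1. LUM (log2 fold change 1.00), PTPRC (1.09) and KRT8 (0.90) rose. EGFL7 (-0.86), KDR (-0.45), CLDN4 (-0.65), KRT18 (-0.27), HBA1 (-1.36) and COL1A1 (-1.09) fell. The part of these marker differences in the results was not tested, and in bulk libraries fewer cells of a kind and less RNA per cell cannot be told apart.

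Across the methyltransferases the response was mixed, and a share near the background changed. Of the 59 tested, 25 changed (42.4%), 19 higher and 6 lower in siAHCYL1 cells, at an adjusted p under 0.05 (limma moderated test on log2(TPM + 1), Benjamini-Hochberg over all genes). Over all 13266 genes tested the share was 51.6%, with 30.4% higher and 21.2% lower. Of the methyltransferases, 32.2% were higher and 10.2% lower, and no test was made of how these shares differ from those of all genes. Their median log2 fold change was 0.17, beside 0.06 over all genes tested. The groups did not overlap in 30 of the 59 (50.8%), beside 59.2% of all genes, with siAHCYL1 above in 21 (background 34.7%) and below in 9 (background 24.5%). Of the 59, 10 rose by at least 0.5 on the log2 scale (16.9%, background 17.9%) and 3 fell by as much (5.08%, background 11.2%). A called change of at least 2-fold on this scale was reached by 2, SETD7 and PRMT6, both higher, beside 8.36% of all genes in either direction (4.82% higher). Among changed methyltransferase genes, the lower ones numbered 3 without siAHCYL1 replicate 2. They numbered 10 after quantile normalization and 10 after median-of-ratios scaling, which put the higher share of the calls at 61.5% and 65.5%, beside 76% here. Over all changed genes the higher share moved as well, to 48.1% after quantile normalization (3471 higher, 3743 lower) and 50.8% after median-of-ratios scaling (3651 higher, 3543 lower), beside 58.9% here.

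**Figure D1:**
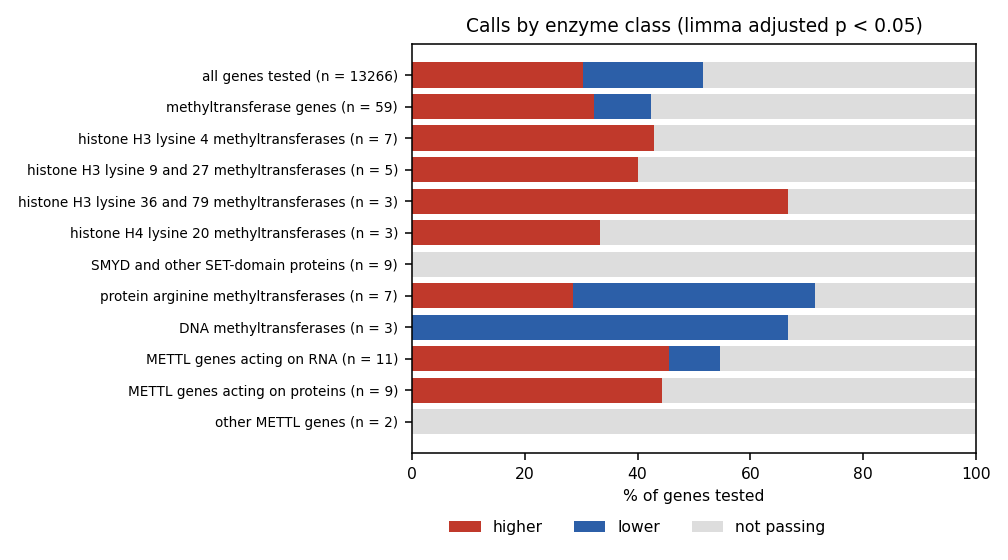
Share of tested genes called higher or lower in siAHCYL1 over siNC libraries, for all 13266 genes, for the 59 methyltransferase genes and for each enzyme class (x axis, percent of genes tested, with n in the labels). The methyltransferases reach 42.4% changed, under the 51.6% of all genes, and the arginine and DNA methyltransferases hold 5 of the 6 falls.

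**Figure D2:**
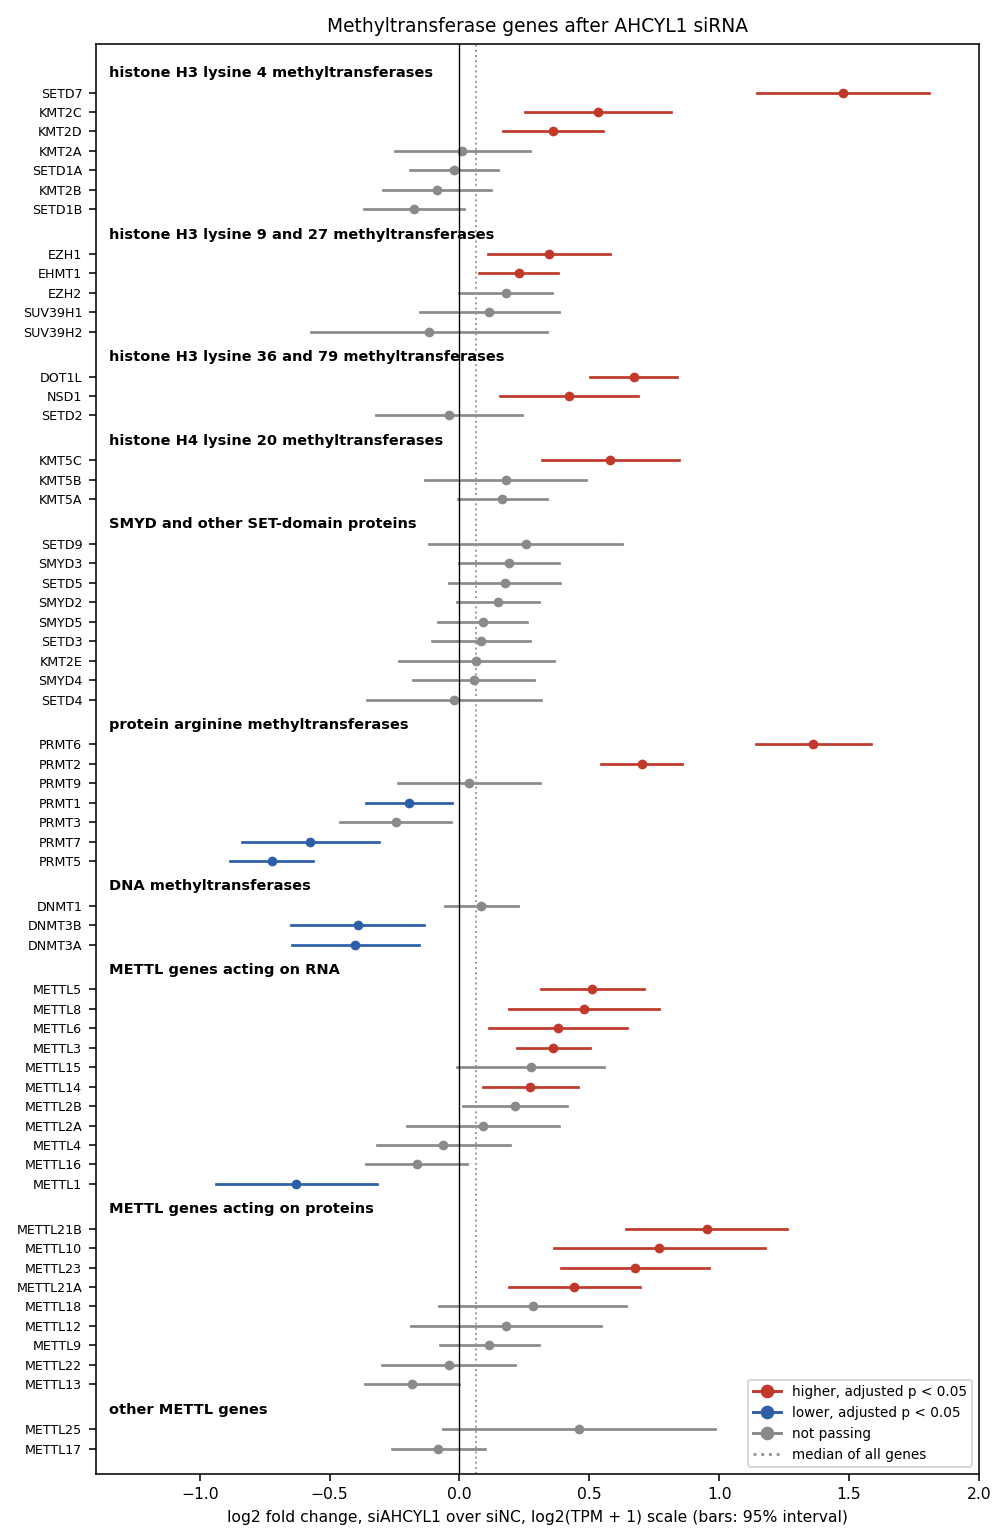
Log2 fold change of each of the 59 tested methyltransferase genes, siAHCYL1 over siNC, on the log2(TPM + 1) scale, with its 95% interval and grouped by enzyme class. The points run from -0.72 (PRMT5) to 1.48 (SETD7), and the dotted line is the median of all genes at 0.06.

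Among the enzymes of histone H3 lysine 4, the mark of active promoters and enhancers, 3 of 7 rose and none fell by the limma test, at the threshold or at an unadjusted p under 0.05. At the threshold, 30.4% of all genes rose and 21.2% fell. SETD7, which adds a single methyl group to this lysine and also modifies non-histone proteins, showed the largest change among the 59. It had 12.88, 10.92 and 10.86 TPM in siAHCYL1 cells, against 2.77, 3.73 and 4.11 TPM in siNC cells. Every siAHCYL1 library lay above every siNC library, and the ratio of the means was 3.27 (log2 fold change 1.48, SE 0.15, limma adjusted p = 4.41e-05). The gene lies on chromosome 4, positions 139495941 to 139606699 of GRCh38 in GENCODE 29.

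KMT2C and KMT2D, the paralogs that methylate enhancers, also rose. KMT2C had 17.66, 13.31 and 13.94 TPM in siAHCYL1 cells and 9.84, 10.70 and 9.35 TPM in siNC cells (log2 fold change 0.53, SE 0.12, limma adjusted p = 0.00585). KMT2D had 22.93, 22.70 and 22.52 TPM in siAHCYL1 cells and 16.31, 18.07 and 18.14 TPM in siNC cells (log2 fold change 0.36, SE 0.086, limma adjusted p = 0.00658). The siAHCYL1 libraries of KMT2D were within a narrow band above all siNC libraries, while those of KMT2C were spread wider and highest in replicate 1. The promoter-directed paralogs were not called. KMT2A averaged 16.0 ± 2.39 TPM in siAHCYL1 and 15.8 ± 0.36 TPM in siNC cells (SD, n = 3), a log2 difference of 0.01 with a 95% interval from -0.25 to 0.27. KMT2B (-0.08), SETD1A (-0.02) and SETD1B (-0.18) did not pass either, although SETD1B passed as lower under median-of-ratios scaling (adjusted p = 0.0261) and quantile normalization (0.0155).

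Of 16 partner genes of these lysine 4 complexes, 1 rose and 4 fell, where 30.4% of all genes rose and 21.2% fell, with a median log2 fold change of -0.07. PAGR1, a subunit particular to the KMT2C and KMT2D complexes, rose to 41.9 ± 1.98 TPM in siAHCYL1 cells, against 25.9 ± 2.11 TPM in siNC cells (0.67). PAXIP1, which binds PAGR1 in the same complexes, fell (-0.36). WDR82 (-0.45), a subunit of the SETD1A and SETD1B complexes, PSIP1 (-0.39), the LEDGF protein that tethers KMT2A, and HCFC1 (-0.27) fell as well. PAXIP1 and HCFC1 did not pass without siAHCYL1 replicate 2 (adjusted p = 0.0555 and 0.067) or 3 (0.0756 and 0.053), and PAXIP1 also not without siNC replicate 1 (0.0687) or 2 (0.0672). The count of changed partners was 3 without siAHCYL1 replicate 2 or without siAHCYL1 replicate 3, and 8 without siAHCYL1 replicate 1.

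Enzymes of repressive histone H3 marks changed little. EZH2, the main catalytic subunit of the lysine 27 complex PRC2, had 116.15, 103.40 and 104.42 TPM in siAHCYL1 cells and 103.53, 94.11 and 88.48 TPM in siNC cells. The ranges overlapped through the highest siNC library, and the log2 difference of 0.18 (limma adjusted p = 0.0874) did not pass. EZH2 passed without siNC replicate 1 (0.24, adjusted p = 0.0342). EZH1, its paralog, was less abundant per length. It had 15.25, 15.34 and 14.60 TPM in siAHCYL1 cells and 10.67, 11.30 and 13.11 TPM in siNC cells, with no overlap (log2 fold change 0.34, SE 0.10, limma adjusted p = 0.0209). That call was lost without siAHCYL1 replicate 2 (0.33, adjusted p = 0.0692), siNC replicate 1 (0.29, 0.0672) or siNC replicate 2 (0.32, 0.0702), and under quantile normalization (0.25, 0.0699). With these included, it was lost in 5 of the 14 alternatives run. EHMT1, which adds the first methyl groups to lysine 9, rose to 59.5 ± 2.34 TPM in siAHCYL1, against 50.6 ± 1.13 TPM in siNC cells (0.23, limma adjusted p = 0.0187). It did not pass without siNC replicate 2 (0.23, 0.0577) or siNC replicate 3 (0.21, 0.0603), nor under quantile normalization (0.13, 0.0848).

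The heterochromatin enzymes were not called. SUV39H1 had 26.70, 22.03 and 23.21 TPM in siAHCYL1 cells and 24.90, 22.66 and 18.84 TPM in siNC cells (0.12, 95% interval -0.15 to 0.38), and SUV39H2 averaged 12.9 ± 3.59 and 13.9 ± 3.10 TPM in siAHCYL1 and siNC cells. Both had overlapping groups.

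Genes that build PRC2 around its catalytic subunits were changed in 8 of 11 cases, 6 higher and 2 lower, with a median of 0.18, beside 51.6% of all genes changed. PHF19, a Polycomb-like subunit that helps recruit the complex, had 44.28, 44.99 and 46.40 TPM in siAHCYL1 cells and 21.59, 18.71 and 22.64 TPM in siNC cells (1.08, SE 0.089, limma adjusted p = 1.55e-05). LCOR, whose locus also encodes a PRC2 accessory protein, rose (1.64), and C17orf96, the accessory subunit now called EPOP, fell (-0.52). RBBP4 (0.42), a histone-binding subunit, and JARID2 (0.43), an accessory subunit, were higher. EED, the core subunit that reads the lysine 27 mark, fell to 11.3 ± 1.21 TPM in siAHCYL1, against 14.8 ± 1.11 TPM in siNC cells (-0.36, limma adjusted p = 0.0215). EED did not pass without siAHCYL1 replicate 2 (-0.33, adjusted p = 0.075), siNC replicate 1 (-0.32, 0.0673) or siNC replicate 3 (-0.35, 0.0571).

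DOT1L, the enzyme of histone H3 lysine 79 in transcribed genes, rose with tight replicates. It had 41.75, 43.96 and 44.65 TPM in siAHCYL1 cells, against 26.62, 26.17 and 27.93 TPM in siNC cells (log2 fold change 0.67, SE 0.074, limma adjusted p = 8.15e-05). It shares 529 of 11272 exon bases with PLEKHJ1 on the other strand, which also rose (1.20), and these libraries do not record strand. NSD1, which dimethylates lysine 36, had 9.37, 8.40 and 7.68 TPM in siAHCYL1 cells and 6.22, 6.23 and 5.73 TPM in siNC cells (0.42, limma adjusted p = 0.0143). SETD2, which trimethylates the same lysine, had 39.22, 27.33 and 29.38 TPM in siAHCYL1 cells and 33.11, 33.17 and 31.36 TPM in siNC cells. Replicate 1 lay above and the other siAHCYL1 libraries below all siNC libraries, and the difference did not pass (-0.04, 95% interval -0.32 to 0.24).

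Both paralogs of NSD1 appear in the table under older symbols outside the name pattern and went opposite ways. WHSC1, now NSD2, rose to 112 ± 7.35 TPM in siAHCYL1 cells, against 87.7 ± 3.22 TPM in siNC cells (0.34, limma adjusted p = 0.003). WHSC1L1, now NSD3, fell to 81.7 ± 9.52 TPM in siAHCYL1 cells, against 97.6 ± 4.59 TPM in siNC cells (-0.26, limma adjusted p = 0.0332). The WHSC1L1 call was lost without siAHCYL1 replicate 2 (adjusted p = 0.124) or 3 (0.109) and without siNC replicate 1 (0.0885) or 2 (0.0817). In the list of lysine methyltransferases outside the pattern that holds them, 4 of 9 tested rose and 2 fell (median 0.17), beside 30.4% and 21.2% of all genes. The list counts KMT5A too, which the pattern also takes. MECOM, a PRDM-family factor, fell most (-0.67), and SETDB1, a lysine 9 enzyme, rose (0.37).

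Of the histone H4 lysine 20 enzymes, KMT5C rose. It had 20.15, 22.19 and 22.17 TPM in siAHCYL1 cells, against 14.02, 12.05 and 16.30 TPM in siNC cells (log2 fold change 0.58, SE 0.12, limma adjusted p = 0.00265). KMT5C makes the trimethylated form in heterochromatin. KMT5A, which adds the first methyl group and is known for its cell cycle control, averaged 65.7 ± 2.93 TPM in siAHCYL1 and 58.5 ± 4.08 TPM in siNC cells (0.17, adjusted p = 0.0959). It passed without siNC replicate 1 (0.22, adjusted p = 0.0457). KMT5B was at 10.4 ± 1.08 and 9.11 ± 1.46 TPM in siAHCYL1 and siNC cells and did not pass (0.18).

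The SMYD genes and the remaining SET-domain genes held no call, where 51.6% of all genes were called. Of 9 tested, 0 changed by limma at the threshold and 0 had an unadjusted p under 0.05, while 3 passed as higher with the replicate number as a block, SMYD3 (adjusted p = 0.0143), SMYD2 (0.034) and SETD5 (0.0422). Their log2 fold changes lay between -0.02 (SETD4) and 0.25 (SETD9). SMYD2 and SMYD3, which methylate p53 and kinase pathway proteins among others, were the most abundant, at 65.0 ± 2.67 and 63.2 ± 5.31 TPM in siAHCYL1 cells and 58.5 ± 2.52 and 55.2 ± 3.93 TPM in siNC cells. SMYD3 passed without siNC replicate 1 (0.25, adjusted p = 0.0451). SETD3, the actin histidine methyltransferase, was at 46.2 ± 4.64 TPM in siAHCYL1 and 43.5 ± 0.34 TPM in siNC cells (0.08). SMYD1, a muscle gene, and SETD6 were below the level for testing. SETD6 averaged 0.43 ± 0.12 TPM in siAHCYL1 and 0.78 ± 0.32 TPM in siNC cells.

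**Figure D3:**
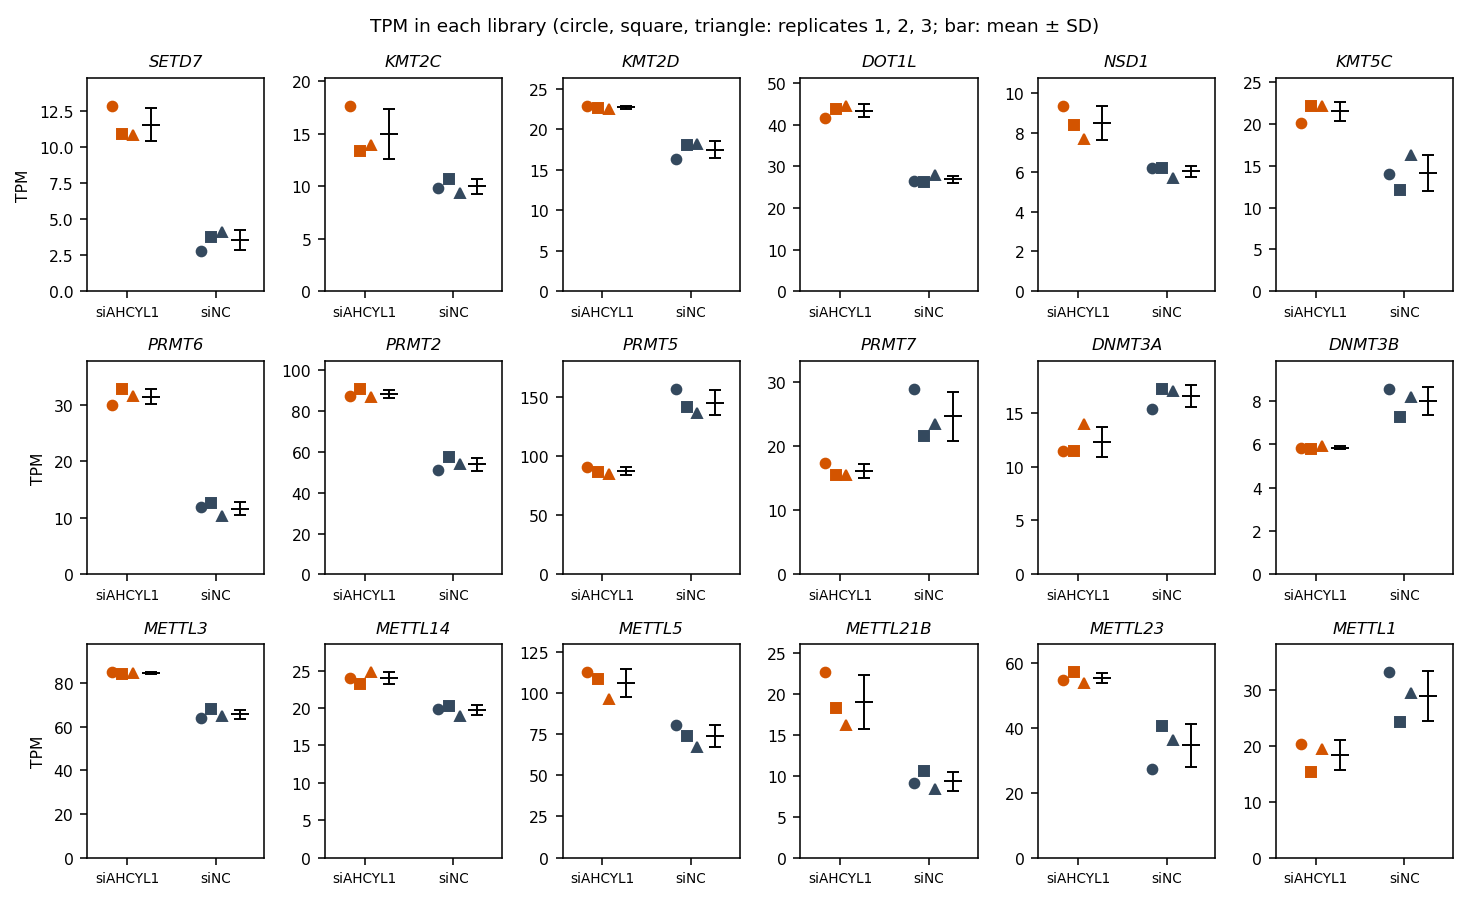
TPM of 18 methyltransferase genes in each library (y axis, from 0), siAHCYL1 left of siNC, with replicates 1, 2 and 3 as circle, square and triangle and the mean with its SD as a bar. The 18 were chosen from called members, and PRMT1, called with overlapping groups, is not shown. The groups do not overlap in any panel, beside 30 of the 59 tested members (50.8%) and 59.2% of all genes. SETD7 and PRMT6 show the widest gaps relative to their level, and PRMT5, PRMT7, DNMT3A, DNMT3B and METTL1 are the panels with siAHCYL1 below siNC.

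Arginine methyltransferases split in direction, with 2 higher, 3 lower and 2 not called among 7 tested. Of all genes, 30.4% were higher and 21.2% lower. PRMT6, which makes asymmetric dimethylarginine and marks histone H3 near its tail end, had 30.10, 32.86 and 31.54 TPM in siAHCYL1 cells and 11.97, 12.67 and 10.35 TPM in siNC cells. The lowest siAHCYL1 library was far above the highest siNC library, with a ratio of means of 2.70 (log2 fold change 1.36, SE 0.099, limma adjusted p = 7.24e-06). PRMT2, a weaker enzyme known as a nuclear receptor coactivator, had 87.40, 90.86 and 87.13 TPM in siAHCYL1 cells and 50.92, 57.33 and 53.86 TPM in siNC cells (0.70, SE 0.069, limma adjusted p = 4.29e-05). CARM1, the coactivator arginine methyltransferase whose symbol lies outside the pattern, rose too, to 100.1 ± 5.79 TPM in siAHCYL1, against 78.9 ± 2.56 TPM in siNC cells (0.34, limma adjusted p = 0.00272).

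PRMT5, the main source of symmetric dimethylarginine on histones and splicing proteins, fell. It had 90.72, 86.73 and 84.32 TPM in siAHCYL1 cells, against 156.49, 141.44 and 136.41 TPM in siNC cells (log2 fold change -0.72, SE 0.071, limma adjusted p = 4.17e-05). Every siAHCYL1 library was below every siNC library, and the mean was 60.3% of that in siNC cells. PRMT5-AS1, on the other strand, covers 938 of the 3467 exon bases of PRMT5 and was not among the genes tested. Reads from these bases cannot be assigned to a strand in these libraries. Among the partners of PRMT5, 3 of 4 fell, where 21.2% of all genes fell. WDR77, the MEP50 subunit that PRMT5 needs for activity, had 68.97, 63.58 and 61.30 TPM in siAHCYL1 cells and 112.25, 90.38 and 92.09 TPM in siNC cells (-0.59, limma adjusted p = 0.000695). RIOK1 (-0.41), a substrate adaptor, and COPRS (-0.23), which directs the complex to histones, fell, and CLNS1A, the adaptor for splicing proteins, did not pass (-0.19, adjusted p = 0.126). In the list of arginine methylation partners, CARM1 included, 1 of 7 rose and 4 fell, beside 30.4% and 21.2% of all genes, with a median of -0.23. The fourth fall was BTG1, a cofactor of PRMT1 (-0.24). BTG1 passed in no fit that left out 1 library other than siAHCYL1 replicate 1, with adjusted p between 0.0562 and 0.122. RIOK1 did not pass without siAHCYL1 replicate 3 (0.0678) or siNC replicate 1 (0.0507), nor COPRS without siAHCYL1 replicate 2 (0.0504) or siNC replicate 3 (0.0709). Only 3 of these genes changed without siAHCYL1 replicate 2, siAHCYL1 replicate 3, siNC replicate 1 or siNC replicate 3.

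PRMT7, which adds single methyl groups to arginine, had 17.38, 15.56 and 15.51 TPM in siAHCYL1 cells and 28.94, 21.60 and 23.53 TPM in siNC cells (-0.57, SE 0.12, limma adjusted p = 0.00289). The siNC libraries were spread widely, and all lay above the siAHCYL1 libraries. PRMT1, the most abundant of all the methyltransferases examined and the main source of asymmetric dimethylarginine, had 286.27, 248.23 and 266.18 TPM in siAHCYL1 cells and 311.13, 321.67 and 283.94 TPM in siNC cells. The groups overlapped, and the log2 fold change of -0.20 (SE 0.074) passed only narrowly (limma adjusted p = 0.0497). The PRMT1 call was lost without siAHCYL1 replicate 2 (-0.14, adjusted p = 0.195) or 3 (-0.19, 0.103). It was also lost without siNC replicate 1 (-0.18, 0.103) or 2 (-0.16, 0.18). With these included, the PRMT1 call was lost in 7 of the 14 alternatives run. PRMT3, which methylates a ribosomal protein, was at 22.5 ± 2.30 TPM in siAHCYL1 and 26.7 ± 1.23 TPM in siNC cells (-0.25, adjusted p = 0.0547) and passed without siAHCYL1 replicate 1 (-0.32, 0.0122). It also passed with median-of-ratios scaling (-0.31, 0.00893) and quantile normalization (-0.33, 0.00593). PRMT9 averaged 5.65 ± 0.47 and 5.47 ± 0.30 TPM in siAHCYL1 and siNC cells (0.04), and PRMT8, a brain enzyme, was near 0. Summed over the family, arginine methyltransferase TPM were 543.15, 501.04 and 510.97 in siAHCYL1 and 593.21, 585.44 and 540.21 in siNC cells, ranges that overlap.

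Both de novo DNA methyltransferases were lower and the maintenance enzyme was not called. DNMT3A had 11.49, 11.50 and 13.95 TPM in siAHCYL1 cells and 15.37, 17.22 and 17.01 TPM in siNC cells (log2 fold change -0.40, SE 0.11, limma adjusted p = 0.0124). DNMT3B had 5.82, 5.77 and 5.93 TPM in siAHCYL1 cells and 8.55, 7.27 and 8.16 TPM in siNC cells (-0.39, SE 0.11, limma adjusted p = 0.0172). Neither gene's groups overlapped, but both changes were modest against the spread. DNMT3A did not pass without siAHCYL1 replicate 2 (-0.36, adjusted p = 0.0509) or siNC replicate 2 (-0.37, 0.0507). DNMT3B did not pass without siAHCYL1 replicate 2 (-0.38, 0.0557), siNC replicate 1 (-0.35, 0.0601) or siNC replicate 3 (-0.38, 0.0536). With these included, its call was lost in 4 of the 14 alternatives run. DNMT1, which copies methylation after replication, had 130.20, 118.21 and 121.59 TPM in siAHCYL1 cells and 115.49, 118.27 and 114.82 TPM in siNC cells. That is a log2 difference of 0.08 with a 95% interval from -0.06 to 0.23. DNMT3L, the germ-line cofactor, was listed at 0 in all libraries. Among 12 genes that work with DNA methylation, 3 rose and 1 fell (median 0.03), beside 30.4% and 21.2% of all genes. CDCA7, which recruits the remodeller HELLS, had 153.36, 133.01 and 126.93 TPM in siAHCYL1 cells and 41.73, 44.41 and 40.82 TPM in siNC cells (1.68, limma adjusted p = 9.86e-07). MBD3, of the methyl-CpG-binding family, rose (0.53), and USP7, a deubiquitinase that binds DNMT1, fell with overlapping groups (-0.30, limma adjusted p = 0.0388). The USP7 call was lost without siAHCYL1 replicate 2 (adjusted p = 0.104) or 3 (0.133) and without siNC replicate 1 (0.1003) or 2 (0.108).

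METTL enzymes that act on RNA held 5 rises and 1 fall among 11 tested, 54.5% changed, near the 51.6% of all genes. The heterodimer that writes N6-methyladenosine (m6A) into messenger RNA was higher in both subunits. METTL3, the catalytic one, had 84.88, 84.01 and 84.55 TPM in siAHCYL1 cells and 64.01, 67.83 and 64.75 TPM in siNC cells (log2 fold change 0.36, SE 0.062, limma adjusted p = 0.0011). METTL14, the RNA-binding partner without catalysis of its own, had 24.00, 23.26 and 24.78 TPM in siAHCYL1 cells and 19.92, 20.25 and 18.94 TPM in siNC cells (0.27, SE 0.082, limma adjusted p = 0.0194). In both genes the groups were separate and the replicates close. The METTL14 call was lost without siAHCYL1 replicate 3 (0.25, adjusted p = 0.0675) or siNC replicate 3 (0.25, 0.0647), and under quantile normalization (0.18, 0.0722). Of 9 other genes listed for m6A writing, not all of them parts of this complex, 1 rose and 1 fell. RBM15B (0.33), which guides the complex to RNA, rose. ZCCHC4 (-0.58), which modifies a ribosomal RNA on its own, fell. The remaining 7 did not pass, and the median was -0.01. Among 10 m6A reader genes, 2 rose and 3 fell, with IGF2BP3 higher (0.70) and HNRNPA2B1 (-0.35) and YTHDC1 (-0.41) lower. For writer and reader genes alike the background was 30.4% of all genes higher and 21.2% lower.

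METTL16, which methylates the U6 small nuclear RNA and hairpins in the MAT2A message, had 28.33, 27.40 and 29.01 TPM in siAHCYL1 cells and 34.74, 31.68 and 29.17 TPM in siNC cells. The groups lay next to each other without overlapping, and the difference did not pass (-0.17, limma adjusted p = 0.14). It passed as lower under median-of-ratios scaling (-0.23, 0.0372) and quantile normalization (-0.25, 0.0251). MAT2A, the SAM synthetase, rose to 247.59, 238.70 and 224.62 TPM in siAHCYL1 cells, against 215.81, 196.99 and 192.05 TPM in siNC cells (0.23, limma adjusted p = 0.0172). It did not pass without siAHCYL1 replicate 2 (adjusted p = 0.0599), siNC replicate 2 (0.0696) or siNC replicate 3 (0.0606).

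METTL5, the m6A enzyme of the small ribosomal subunit RNA, had 112.46, 108.46 and 96.24 TPM in siAHCYL1 cells and 80.69, 73.71 and 67.24 TPM in siNC cells (log2 fold change 0.51, SE 0.088, limma adjusted p = 0.00112). METTL5 shares 572 of its 2865 exon bases with SSB on the other strand, and SSB fell (-0.66). METTL8, a mitochondrial tRNA enzyme, was at 6.90 ± 0.73 TPM in siAHCYL1 and 4.65 ± 0.41 TPM in siNC cells (0.48, limma adjusted p = 0.0116), a call lost without replicate 1 of both groups (0.36, adjusted p = 0.0627). METTL6, a tRNA 3-methylcytidine enzyme, was at 13.2 ± 1.24 TPM in siAHCYL1 and 9.95 ± 1.14 TPM in siNC cells (0.38, limma adjusted p = 0.0226). The METTL6 call was lost without siAHCYL1 replicate 2 (0.32, adjusted p = 0.0936), siNC replicate 1 (0.33, 0.0683) or siNC replicate 3 (0.35, 0.0644). With these included, it was lost in 4 of the 14 alternatives run. METTL4, an enzyme of small nuclear RNA, and METTL15, a mitochondrial ribosomal RNA enzyme, did not pass (-0.06 and 0.28), and METTL15 passed without siAHCYL1 replicate 2 (0.39, 0.0369).

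METTL1, which writes 7-methylguanosine into transfer RNA, was the single fall among the RNA enzymes. It had 20.36, 15.31 and 19.36 TPM in siAHCYL1 cells, against 33.10, 24.25 and 29.39 TPM in siNC cells (log2 fold change -0.63, SE 0.14, limma adjusted p = 0.00429). WDR4, its obligate partner, fell to 16.56, 17.43 and 17.28 TPM in siAHCYL1 cells, against 29.16, 19.37 and 22.37 TPM in siNC cells (-0.43, limma adjusted p = 0.0253). The WDR4 call was lost without siNC replicate 1 (-0.27, adjusted p = 0.0641) and without siAHCYL1 replicate 1 (0.0563), 2 (0.0512) or 3 (0.0516). For both genes all siNC libraries were higher, and siNC replicate 1 was the highest. METTL1 sits on chromosome 12, positions 57768471 to 57772793 of GRCh38 on the minus strand, and shares 506 of its 2621 exon bases with METTL21B on the plus strand. METTL21B moved the other way, to 22.64, 18.21 and 16.23 TPM in siAHCYL1 cells, against 9.07, 10.52 and 8.32 TPM in siNC cells (0.95, SE 0.14, limma adjusted p = 0.000411). Reads from the shared bases cannot be assigned to a strand in these libraries.

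**Figure D4:**
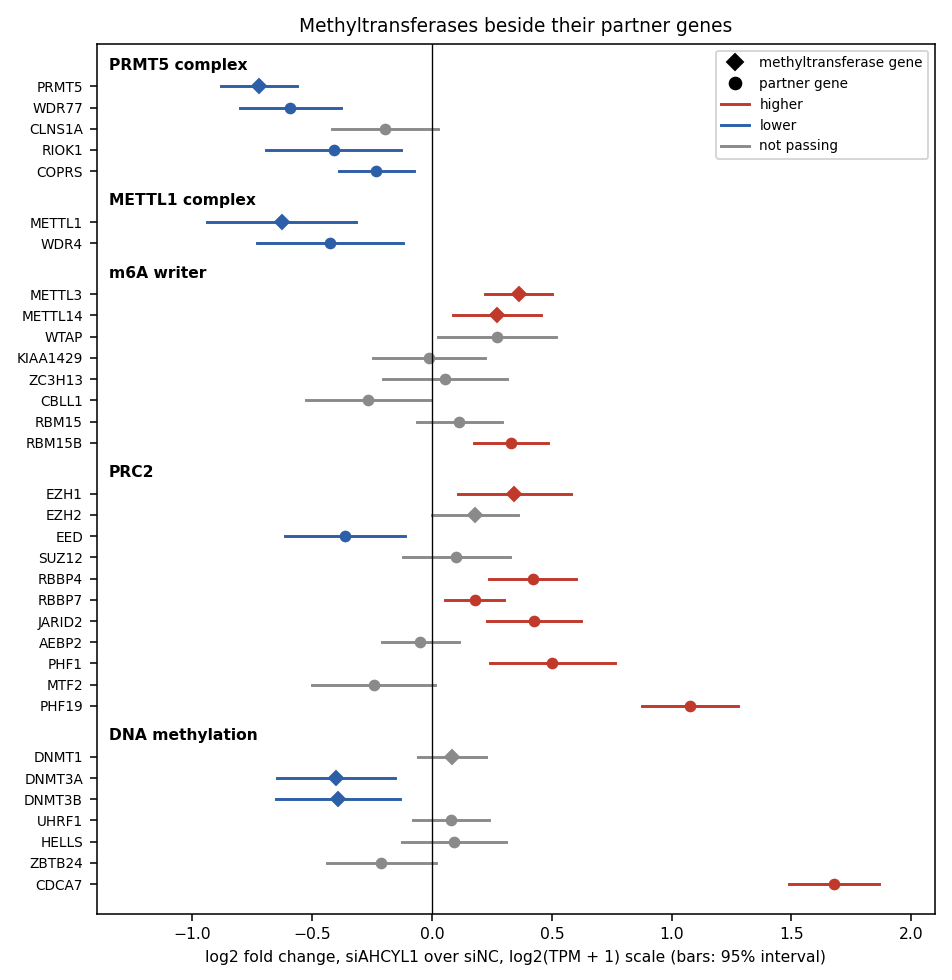
Log2 fold changes, siAHCYL1 over siNC, of methyltransferase genes (diamonds) and known partner genes (circles) with 95% intervals, by complex. PRMT5 (-0.72) stands with WDR77 (-0.59), RIOK1 and COPRS on the lower side, as does METTL1 with WDR4. METTL3 and METTL14 lie on the higher side. The other m6A writer genes lie on both sides, from CBLL1 (-0.27) to RBM15B (0.33), and of these only RBM15B passed. PRC2 and DNA methylation genes lie on both sides as well. With 1 library left out, the calls of RIOK1, COPRS, WDR4 and METTL14 were lost in some fits.

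METTL21B, now EEF1AKMT3, belongs to the METTL enzymes that modify proteins, of which 4 of 9 tested rose and 0 fell, beside 30.4% and 21.2% of all genes. By limma, 1 more of these METTL enzymes, METTL13, had an unadjusted p under 0.05, and it was lower (-0.18). Both METTL21B and METTL10, now EEF1AKMT2, modify lysines of the translation elongation factor eEF1A. METTL10 was low, at 3.06, 3.54 and 3.68 TPM in siAHCYL1 cells and 1.07, 1.82 and 1.98 TPM in siNC cells, and rose (0.77, limma adjusted p = 0.00612). METTL13, which modifies other sites of eEF1A, had 49.1 ± 2.32 TPM in siAHCYL1 and 55.9 ± 4.47 TPM in siNC cells (adjusted p = 0.0859). It passed under both other scalings, at an adjusted p of 0.0322 with median-of-ratios and 0.0155 with quantile. METTL23, described in mouse as a histone H3 arginine methyltransferase, had 54.76, 57.03 and 53.84 TPM in siAHCYL1 cells and 27.34, 40.37 and 36.07 TPM in siNC cells. All siAHCYL1 libraries were higher, with siNC replicate 1 the lowest of its group (0.68, SE 0.13, limma adjusted p = 0.00179). METTL21A, which methylates HSP70 chaperones, rose to 24.8 ± 2.01 TPM in siAHCYL1, against 18.0 ± 2.43 TPM in siNC cells (0.44). METTL9, METTL12, METTL18 and METTL22 did not pass, with log2 fold changes between -0.04 and 0.28. METTL9, a histidine methyltransferase, was second in abundance among all members, at 173 ± 17.7 TPM in siAHCYL1 and 160 ± 10.4 TPM in siNC cells.

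Among the other METTL genes, METTL17, a mitochondrial ribosome factor, did not pass (-0.08), nor did METTL25 (0.46), which passed without siAHCYL1 replicate 3 (0.65, adjusted p = 0.0491). The thiol methyltransferases METTL7A and METTL7B lay below the level for testing. METTL7A had 0.32, 0.13 and 0.28 TPM in siAHCYL1 cells and 0.76, 0.92 and 0.90 TPM in siNC cells. METTL7B had 0.50, 0.44 and 0.60 TPM in siAHCYL1 cells and 0.88, 2.03 and 2.20 TPM in siNC cells. Both were lower in every siAHCYL1 library than in any siNC library. With no filter on low values both passed as lower (limma, METTL7A -0.58, adjusted p = 0.00313, and METTL7B -0.80, adjusted p = 0.0211). ITGA7 shares 44 of 1506 exon bases with METTL7B on the other strand and fell (-2.37). METTL11B, METTL21C, METTL24 and the pseudogene METTL21EP were at or near 0.

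METTL2A and METTL2B are near-identical copies on different chromosomes, and their longest protein-coding transcripts were 97.2% identical over 3133 aligned bases. How reads were split between them cannot be checked, so their separate values are uncertain. METTL2A had 30.54, 20.97 and 23.21 TPM in siAHCYL1 cells and 22.93, 24.14 and 22.10 TPM in siNC cells, and METTL2B averaged 42.4 ± 2.03 and 36.5 ± 3.69 TPM in siAHCYL1 and siNC cells. Neither passed (0.09 and 0.21), and METTL2B passed without siNC replicate 1 (0.29, adjusted p = 0.0193). The copy extends upstream of the gene, as windows around a shared E2F-type motif show. They come from the RefSeq promoter table (GRCh38.p14), with the motif in capitals, and differ at 1 of 48 bases:
METTL2A, chr17:62423790-62423837, plus strand: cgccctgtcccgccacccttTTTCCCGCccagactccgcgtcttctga
METTL2B, chr7:128476653-128476700, plus strand: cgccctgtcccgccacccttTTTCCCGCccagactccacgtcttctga

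Promoters were searched for 3 motifs on both strands, in windows from 250 bases before to 50 after each start. A promoter was in the table for 61 members, 53 of them tested. The E2F motif (TTTCCCGC, TTTCGCGC, TTTGCCGC or TTTGGCGC) was in 5 of the 53 (9.43%), beside 5.39% of the 9977 promoters of genes tested and 3.33% of all 27305 promoters. Its carriers were EZH1, EZH2, DNMT1, METTL2A and METTL2B, of which EZH1 rose and the others did not pass. The share counts the near-identical METTL2A and METTL2B windows separately. The longer NRF1 motif was in 1 of 53 (1.89%), SETD4, beside 2.37% of promoters of tested genes. The ETS motif CCGGAAG was in 7 of 53 (13.2%), beside 19.2% of the promoters of tested genes. It was in 4 of the 17 members that rose (23.5%), beside 21% of all genes that rose, and in none of the 5 that fell, beside 15.2% of all genes that fell. A match is a description of letters and not a binding site, and these shares were not tested. The share among members that rose was near that of all genes that rose. The other tested carriers, SMYD2, SETD4 and PRMT3, did not pass. They were 3 of 31 such members (9.68%), beside 19.8% of all genes that did not pass. The 4 carriers that rose are METTL3, METTL14, METTL5 and METTL6, shown for the letters of their promoters. The windows, 5′ to 3′ on the gene's strand with the motif in capitals, show where it lies in each. METTL14 and METTL6 have further matches, and the METTL6 window opens with 1 of them, left in lower case. Where the capitals read CTTCCGG the motif is on the opposite strand:
METTL3, chr14:21511444-21511490, minus strand: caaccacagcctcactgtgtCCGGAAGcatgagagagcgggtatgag
METTL14, chr4:118685368-118685414, plus strand: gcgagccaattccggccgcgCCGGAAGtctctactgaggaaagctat
METTL5, chr2:169824878-169824924, minus strand: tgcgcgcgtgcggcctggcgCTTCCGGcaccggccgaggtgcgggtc
METTL6, chr3:15427525-15427571, minus strand: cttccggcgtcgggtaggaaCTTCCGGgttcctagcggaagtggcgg

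Supply of the methyl donor was covered by 13 tested genes of the methionine cycle, of which 3 rose and 2 fell (median 0.04), beside 30.4% and 21.2% of all genes. MTR (0.51), methionine synthase, rose with MAT2A. AHCYL1 itself and CBSL (-1.27), a near-identical copy of CBS whose value is therefore uncertain, fell. AHCY averaged 303 ± 9.25 TPM in siAHCYL1 and 274 ± 28.8 TPM in siNC cells and did not pass (0.15, limma adjusted p = 0.127).

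Enzymes that remove methyl groups went both ways, with 5 of 25 tested demethylase and TET genes higher and 5 lower (median 0.01). Beside this count and those below, 30.4% of all genes rose and 21.2% fell. KDM2A (0.62), KDM4B (0.52) and KDM2B (0.71), lysine demethylases of the JmjC family, rose, as did KDM4C (0.52) and KDM6B (0.44). JMJD1C (-0.45, limma adjusted p = 0.0281) and KDM7A (-0.37, 0.0315) of that family fell. Both falls were lost with no filter (adjusted p = 0.0625 and 0.0596). Others of the family, such as KDM3A and KDM5A, did not pass. KDM1A, the amine oxidase LSD1, fell to 180 ± 15.5 TPM in siAHCYL1, against 237 ± 7.25 TPM in siNC cells (-0.39), and its paralog KDM1B fell as well (-0.54). Methyltransferases of transfer and ribosomal RNA outside the name pattern were 6 higher and 6 lower of 38 tested (median -0.06), with RRNAD1 higher (1.65) and FBL, fibrillarin (-0.48), and NSUN2 (-0.45) lower. Of 7 cap methyltransferase genes 2 rose, MEPCE (0.43) and CMTR2 (0.41), and 0 fell by limma at the threshold or at an unadjusted p under 0.05. Among 22 enzymes acting on small molecules and protein ends, 6 rose and 4 fell, with a median near 0. NNMT, which spends SAM on nicotinamide, rose to 15.5 ± 0.93 TPM in siAHCYL1, against 3.49 ± 1.58 TPM in siNC cells (1.94, limma adjusted p = 0.000106). ICMT, which methylates prenylated proteins such as RAS, rose to 160 ± 1.41 TPM in siAHCYL1, against 94.4 ± 1.72 TPM in siNC cells (0.76, limma adjusted p = 8.73e-06). TPMT, thiopurine methyltransferase, fell (-0.62).

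Taking the RNA-acting METTL genes as a sum, 394.24, 362.69 and 364.56 TPM stood in siAHCYL1 libraries and 334.11, 316.17 and 302.13 TPM in siNC libraries. Each siAHCYL1 sum was above each siNC sum, and replicate 1 was the highest in both groups. The sums of all members, of the lysine 4, lysine 9 and 27, lysine 36 and 79 and lysine 20 enzymes and of the protein-acting METTL genes were separated the same way. Those of the SMYD and other SET-domain genes, the arginine and the DNA methyltransferases overlapped. The remaining class, the other METTL genes, was separated the other way. It had 58.4 to 58.46 TPM in siAHCYL1 and 58.94 to 68.43 TPM in siNC libraries. For all members the gap was narrow, between a lowest siAHCYL1 sum of 2240.5 TPM and a highest siNC sum of 2230.56 TPM. It was narrow as well for the lysine 9 and 27 enzymes, between 210.48 TPM in siAHCYL1 and 207.73 TPM in siNC libraries. The sums were taken on TPM without further scaling. Over all genes tested the median log2 fold change was 0.06 here and 0.0045 after median-of-ratios scaling. The part of that shift in the sums was not tested.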

How the data were processed

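RNA-seq of 6 HMCB libraries was analysed from 1 table of TPM that the authors deposited. Per the submitters' processing notes, STAR and RSEM were used with GRCh38, with neither versions nor an annotation stated. Per the labels' protocols the libraries were non-directional. Columns prefixed nc were read as siNC and those prefixed si as siAHCYL1, the only other group. Replicates are labelled biological but separate cultures are not named, so the p-values reflect variation between these libraries, possibly technical. Depth is unknown.

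Genes reaching 1 TPM in 3 or more libraries were tested on log2(TPM + 1), a scale that understates changes of low genes, with limma 3.58.1 in R 4.3.3 (intensity trend, two-sided, Benjamini-Hochberg over all genes, threshold 0.05). The code was tested on simulated data. Genes named in full were a fixed set of regulators with any result and every called member with a log2 fold change of at least 0.5 and a mean of at least 5 TPM in the higher group. From each partner list came up to 3 called genes by p and the one most against the list. Complex partners, KDM1B, called genes of counts under 6 and low members were added after their values were seen. The members and lists were chosen with earlier results of these data known. Locations and exon overlaps are from GENCODE 29, promoters from RefSeq. Alternatives were another pseudocount, other filters, median-of-ratios scaling, quantile normalization, robust moderation, the replicate number as a block and each library left out. A fit without replicate 1 of both groups was chosen after seeing the data. Some genes counted in the lists are not reported here by name.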

Additional observations from a re-analysis of the deposited data

How the results depend on the processing

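Of the 25 changed methyltransferase genes, 17 kept their call in every alternative run, 8 lost it in at least 1, and 12 of the 34 others passed in at least 1. No called change turned sign; 15 of the 59 changed sign in some alternative without a call on either side. The count of changed methyltransferase genes ran from 21 to 26 with 1 library left out, and reached 34 with the replicate block and 24 with a pseudocount of 0.1. The number of changed genes ran from 5566 to 6725 with 1 library left out, and was 7919 with the replicate block and 6801 without replicate 1 of both groups. AHCYL1 lay between -3.54 and -3.38 in every fit. Deviations from the group mean correlated at 0.23, 9e-04 and 0.15 between libraries of the same number, so the numbers were not taken to pair the samples; under that block 9 more passed, EZH2 (adjusted p = 0.0124), SMYD3 (0.0143), PRMT3 (0.0211), METTL2B (0.0217), METTL13 (0.0257), SMYD2 (0.034), KMT5A (0.0395), METTL25 (0.0398) and SETD5 (0.0422). Changed partner genes moved in count: with no filter, 3 lysine methyltransferases outside the pattern in place of 6. For m6A writer partners the count was 4 with median-of-ratios scaling, with quantile normalization and without replicate 1 of both groups, and 6 with the block, in place of 2. For DNA methylation partners it was 7 under both scalings in place of 4, and for cap enzymes 4 under quantile normalization in place of 2. For lysine 4 partners it was 8 under quantile normalization and the block and 9 without replicate 1 of both groups, in place of 5. With 1 library left out these counts ran from 3 to 8 for lysine 4 partners, from 3 to 6 for lysine methyltransferases outside the pattern and from 3 to 6 for arginine methylation partners. For these moves the cause was not tested. No depth is recorded in TPM, so no limit from it can be given.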
